A study of Mus musculus with 12 samples.

Results

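The genes described are 42 that license and copy DNA in S phase, chosen by name from 22619 gene IDs in the deposited tables, and all 42 were found. They comprise the 6 subunits of the MCM2-7 helicase ring, the 6 of the origin recognition complex, and Cdc6, Cdt1 and Gmnn, which load the ring or restrain its loading. A further 8 genes start the fork (Dbf4, Cdc7, Mcm10, Cdc45 and the 4 GINS subunits), 8 encode polymerases and primase, 6 the PCNA clamp and its loader, and 5 bind single strands or join Okazaki fragments. Expression was measured by Smart-seq2, which copies whole transcripts from minute RNA inputs, in 12 mouse libraries. The embryo libraries were of strain C57BL/6: 2 were wild type (called control embryo), 3 carried the Dcaf11 knockout (KO embryo) and another 3 carried it and were titled as arrested (KO arrest). The embryonic stem (ES) cell libraries were of strain 129Sv, 2 of them control cells (control ES) and 2 with Dcaf11 knockdown (KD ES). The DCAF11 protein is one of the receptors that bring substrates to the ubiquitin ligase CUL4-DDB1. The labels used here give no embryo stage, sex, cell number or knockout allele, and do not say whether replicate libraries had separate embryos or cultures as their source, so the p-values measure only how these libraries vary, perhaps for technical reasons.

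Each origin of replication is prepared, or licensed, before S phase. ORC binds the origin, and CDC6 and CDT1 then help it to load the MCM ring around DNA; geminin, the product of Gmnn, binds CDT1 and prevents a further round of loading. The kinase CDC7 with its activator DBF4 triggers firing, after which CDC45 and GINS join the ring to form the active helicase. Early mouse embryos divide at first on proteins and transcripts stored in the oocyte, whereas ES cells cycle fast with a short G1 phase. In many cells CUL4-DDB1 destroys CDT1 during S phase, with CDT2 (Dtl), another receptor of that ligase.

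Values are FPKM, fragments per kilobase of gene scaled to library size, as deposited, so levels of different genes can be set side by side per length. No read counts were used here. Read coverage per FPKM, which is proportional to depth, ran from 0.373 in KO arrest 1 to 2.01 in control embryo 1, and from 6573 (control embryo 1) to 12061 genes reached 1 FPKM. Fewer cells of a type and less RNA per cell cannot be told apart in such libraries. A gene listed at 0 is not read as absent. Control embryos 1 and 2 differed from each other more than the libraries of any other group did (across genes, r = 0.774). For replication genes called in the knockout comparisons, it is stated where the call depends on 1 of them. Genes of the related lists are given only with both. Dcaf11 itself did not check the knockout labels, with 2.82 and 14.3 FPKM in control embryos, 0.184 to 3.99 in KO embryos and 0.422 to 6.02 in KO arrest. Which part of the gene was deleted is not stated. In KD ES it stood at 1.69 and 1.83 FPKM against 6.48 and 4.52. Of 10 pluripotency markers, all 10 reached 1 FPKM in every ES library, and 9 of 11 oocyte and maternal markers did so in every control and KO embryo library.

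Promoter sequence is shown for the helicase ring, all 6 genes of which had lower values in both KD ES libraries than in both controls. Among all genes tested in ES cells 37.1% had this arrangement. The lines give the 180 bases before the start of 5 ring genes, 5′ to 3′ on the gene's strand, from RefSeq (GRCm38.p6, another build than the mm9 of the expression files). Capitals mark matches to 4 motifs of the E2F type, the class of site through which E2F factors act on many S-phase genes: TTTCCCGC, TTTCGCGC, TTTGCCGC and TTTGGCGC, searched on both strands and able to overlap. For Mcm7 the first of 2 listed windows is shown.
Mcm2, chr6:88898781-88898960, strand −: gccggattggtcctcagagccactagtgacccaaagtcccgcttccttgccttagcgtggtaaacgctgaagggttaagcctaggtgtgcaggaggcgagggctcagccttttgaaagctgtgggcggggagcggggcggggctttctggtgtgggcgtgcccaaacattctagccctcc
Mcm3, chr1:20820313-20820492, strand −: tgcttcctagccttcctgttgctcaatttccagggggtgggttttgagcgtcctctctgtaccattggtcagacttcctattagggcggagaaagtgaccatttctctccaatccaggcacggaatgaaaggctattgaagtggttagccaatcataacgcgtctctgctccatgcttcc
Mcm5, chr8:75109329-75109508, strand +: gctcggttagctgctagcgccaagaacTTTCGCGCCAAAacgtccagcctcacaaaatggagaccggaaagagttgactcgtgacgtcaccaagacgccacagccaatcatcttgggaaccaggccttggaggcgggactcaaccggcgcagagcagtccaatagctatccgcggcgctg
Mcm6, chr1:128359706-128359885, strand −: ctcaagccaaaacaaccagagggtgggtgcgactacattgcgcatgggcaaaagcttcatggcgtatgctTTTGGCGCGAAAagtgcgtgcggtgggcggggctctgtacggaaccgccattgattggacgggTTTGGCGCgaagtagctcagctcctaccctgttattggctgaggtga
Mcm7, chr5:138171884-138172063, strand −: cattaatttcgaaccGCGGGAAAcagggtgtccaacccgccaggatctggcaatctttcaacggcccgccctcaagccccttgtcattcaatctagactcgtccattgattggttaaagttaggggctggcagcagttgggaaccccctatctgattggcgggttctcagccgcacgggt
Mcm6 held 3 matches in this stretch, Mcm5 held 2 that overlap, Mcm7 held 1, and Mcm2 and Mcm3 held 0; the matches of Mcm3 lie after its start. In windows of 300 bases, from 250 before to 50 after the start, 14 of the 34 replication genes with an entry held a match (41.2%), against 704 of 27025 genes in the table (2.6%). The 14 are Mcm3, Mcm5, Mcm6, Mcm7, Orc1, Orc3, Cdc6, Cdt1, Gins3, Pola1, Pold1, Pole2, Rfc3 and Lig1. Gins1, Gins2, Gins4, Gmnn, Mcm4, Pole, Prim2 and Rfc2 had no entry. A match is a description of letters, not a bound site.

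In the ES cells the ring genes were abundant and close to one another. The highest ring gene stood 2.11 and 2.26 times above the lowest in control ES and 2.14 and 2.10 times in KD ES. In embryos the ring was uneven. That ratio was 41.0 and 10.7 in control embryos, 13.7, 15.7 and 6.21 in KO embryos and 5.47, 4.47 and 2.80 in KO arrest. Mcm2 was highest and Mcm3 lowest of the 6 in both control embryos, while Mcm6 was highest in every KO embryo and KO arrest library. The summed ring level was 37.6 and 44.1 FPKM in control embryos, 83.3 to 108 in KO embryos, 65.8 to 103 in KO arrest, 440.0 and 435 in control ES and 284 and 289.6 in KD ES. Ranges of this sum overlapped only between KO embryo and KO arrest. Over all 42 genes the summed share of FPKM was 0.259% to 0.490% in embryos and 0.269% to 0.336% in ES cells, ranges that overlap although those of the ring did not.

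**Figure D1:**
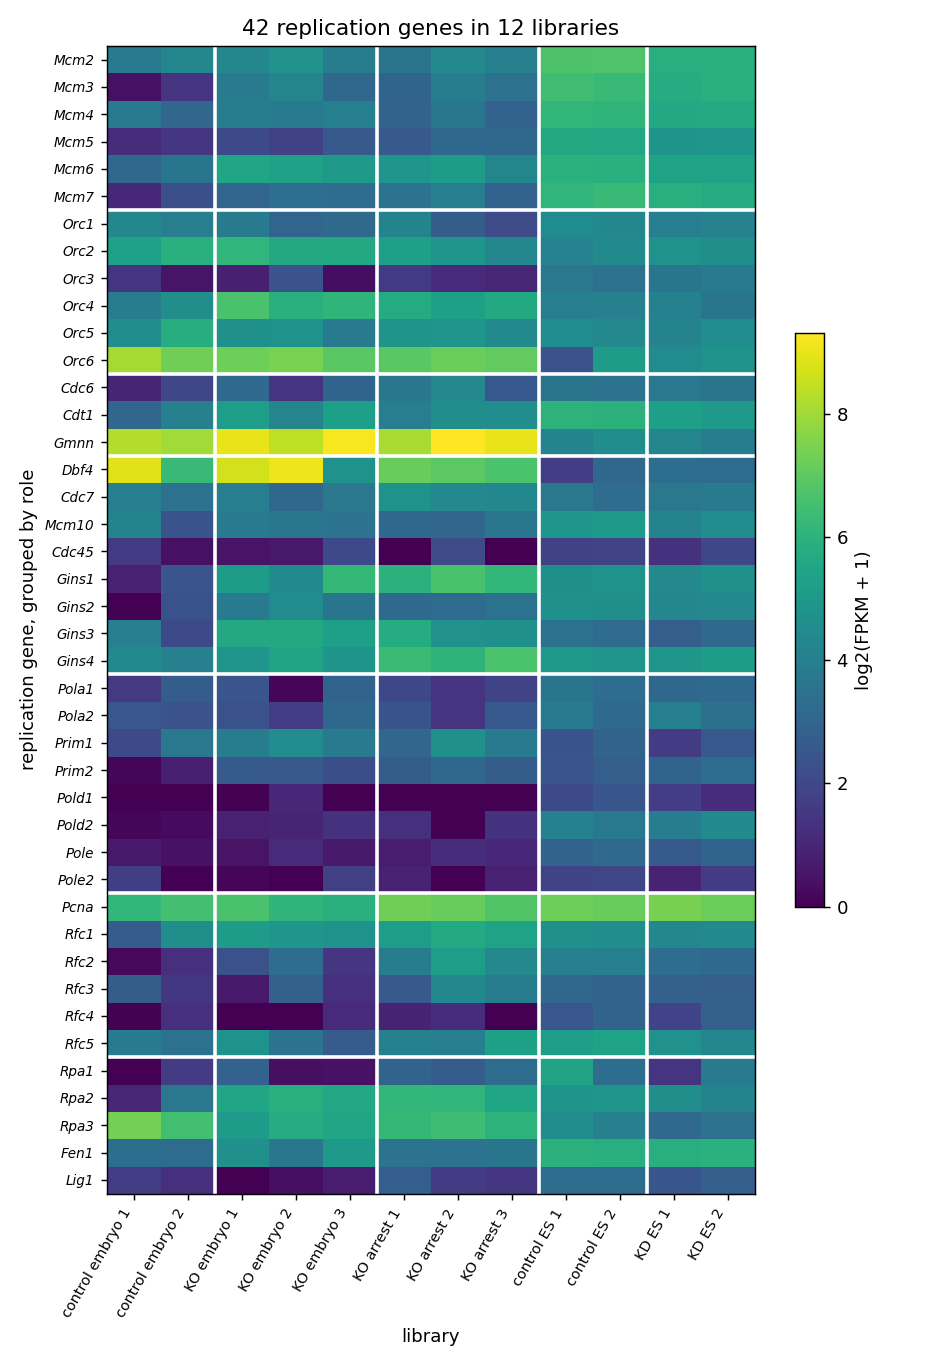
Heat map of log2(FPKM + 1) of the 42 replication genes (rows, grouped by role) in the 12 libraries (columns, grouped as labelled). Brighter cells are higher. The ring genes are brightest in the ES cell libraries, and Gmnn and Orc6 in the embryo libraries.

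A gene was called changed where limma, fitted on log2(FPKM + 1) over every gene that reached 1 FPKM in 2 or more libraries, gave an adjusted p under 0.05 (Benjamini-Hochberg over all genes kept). Log2 fold changes (log2FC, ± SE) are on that scale, which understates the change of low genes. The knockout and arrest comparisons share the 2 control embryos.

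Over all 42 genes, 7 of 41 tested rose and 0 fell in KO embryos against control embryos (Mcm3, Mcm6, Orc4, Gins1, Gins2, Gins3 and Rpa2). Of all 11795 genes tested in this comparison 6.36% were called, 4.86% higher and 1.5% lower. The median log2FC of the replication genes was 0.43 against 0.31 for all genes, and 18 of 41 had every KO embryo above both controls, an arrangement that 24.2% of all genes had. With median-of-ratios scaling the median of all genes moved to −0.05 and that of the replication genes to −0.07; Gins1, Mcm3 and Rpa2 were then called higher and Rpa3 lower. The number called was 3 when control embryo 1 was left out and 10 (9 higher and Rpa3 lower) when control embryo 2 was. It was 0, 1 and 0 when KO embryo 1, 2 and 3 were left out in turn, and 4, 2 and 4 for KO arrest 1, 2 and 3.

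In KO arrest against control embryos 9 of 41 rose and 0 fell (Mcm3, Orc4, Gins1, Gins3, Gins4, Prim2, Rfc1, Rfc2 and Rpa2). Of all genes 25.2% were called, 16.4% higher and 8.87% lower, so the share of replication genes called was near that of all genes. Their median log2FC was 0.73 against 0.45, and 20 of 41 had every KO arrest library above both controls, against 31.3% of all genes. With median-of-ratios scaling 5 were called higher and 1 lower (Orc2), with medians of 0.12 and 0.02. The number called was 5 without control embryo 1 and 4 without KO arrest 2; without each of the other 6 embryo libraries it was 6 to 12.

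KO arrest and KO embryos were also set against each other, and 0 of 41 replication genes passed, against 8.58% of all genes (4.93% higher and 3.65% lower). At an unadjusted p under 0.05 there were 7 (17.1%), a smaller share than the 26.3% of all genes at that threshold: Orc2 was lower and Gins4, Pcna, Rfc2, Rfc3, Rpa1 and Lig1 were higher in KO arrest. The 6 clamp and clamp-loader genes had estimates above 0 and a median log2FC of 0.83, while the ring median was −0.29 and that of all genes 0.07. Rfc4 reached at most 1.31 FPKM in KO arrest and 1.18 in KO embryos, and its estimate was −0.14 with the trend with gene length removed. Gins4 and Rfc2 were called in limma fits without control embryo 1 or without control embryo 2.

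In KD ES against control ES 0 of 42 rose and 6 fell (Mcm2, Mcm4, Mcm5, Mcm6, Cdt1 and Rfc2). Of all 12264 genes tested 6.23% were called and 3.64% were called lower. The median log2FC was −0.31 against −0.09 for all genes, and 21 of 42 had both KD ES libraries below both controls, an arrangement that 37.1% of all genes had, and 4 had both above, against 25.3%. The number called was 0 without either control ES library, 2 without KD ES 1, 3 without KD ES 2 and 0 with all 12 libraries in 1 fit. By promoter, 3 of 14 genes with an E2F-type match, 1 of 20 without and 2 of 8 with no entry were called lower in KD ES, with median log2FC of −0.48, −0.20 and −0.27. In KO embryos 3 of 13, 2 of 20 and 2 of 8 tested in the same order were called higher (medians 0.82, 0.13 and 1.21). In KO arrest 2 of 13, 3 of 20 and 4 of 8 were (medians 1.38, 0.13 and 2.13). Of all genes 4.86% were called higher in KO embryos and 16.4% in KO arrest (medians 0.31 and 0.45). The 2 of 13 and 3 of 20 in KO arrest are near the share of all genes.

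**Figure D2:**
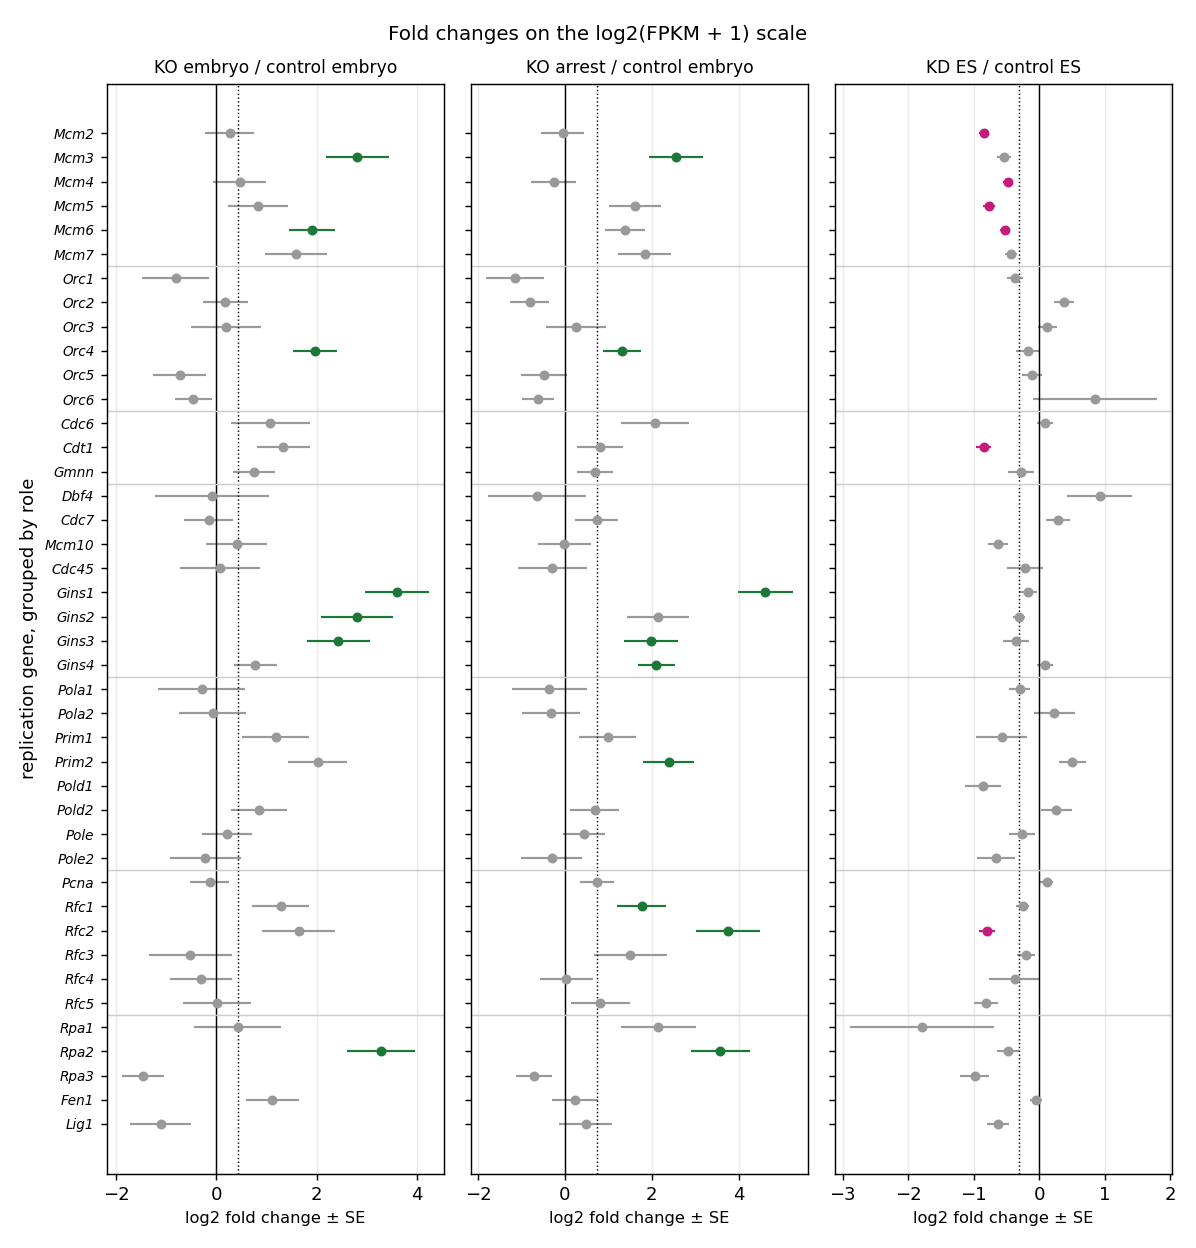
Log2FC, from log2(FPKM + 1) values, with its standard error (x axis, its range differing between panels) for each replication gene tested, 1 panel a comparison. Green marks genes called higher, pink genes called lower and grey genes not called, and the dotted line is the median of the genes shown: 7 are green in KO embryo, 9 in KO arrest, and 6 are pink in KD ES.

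Mcm3 and Mcm6, both ATPase subunits of the ring, rose in KO embryos. Mcm3 (mm9 chromosome 1, 20793095 to 20810294) stood at 0.328 and 1.71 FPKM in control embryos and at 13, 17.9 and 7.97 in KO embryos. It was at 7.01, 14.4 and 10.2 FPKM in KO arrest, at 86.7 and 77.8 in control ES and at 53.3 and 59.7 in KD ES. The control embryos were the lowest of all libraries, and every KO embryo and KO arrest library was above both. The log2FC of Mcm3 was 2.81 ± 0.63 in KO embryos (adjusted p = 0.0296) and 2.55 ± 0.63 in KO arrest (adjusted p = 0.0143), limma with 2 control and 3 knockout libraries each. Mcm6 (mm9 chromosome 1, 130228168 to 130256233) stood at 7.96 and 11.2 FPKM in control embryos, 45.2, 39.5 and 31.5 in KO embryos and 28, 34.4 and 18.6 in KO arrest. In ES cells it stood at 60.3 and 59.6 FPKM in controls and 41.1 and 41.8 after knockdown. Its knockout libraries lay above both controls and below control ES. The log2FC of Mcm6 was 1.91 ± 0.46 in KO embryos (adjusted p = 0.0393), and in KO arrest it was 1.38 ± 0.46 and did not pass (adjusted p = 0.0518). The Mcm3 call in KO embryos held in 7 of 16 other settings and that of Mcm6 in 5 of 16. With 1 library left out, Mcm3 held only without control embryo 2 or KO arrest 1 and Mcm6 only without control embryo 2 or KO arrest 3, while the Mcm3 call in KO arrest was lost only without control embryo 1 or KO arrest 2.

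The other 4 ring genes did not pass in either knockout comparison. Mcm2 (mm9 chromosome 6, 88833468 to 88848774), whose N-terminal part also binds histones, stood at 13.5 and 18.3 FPKM in control embryos, 18.8, 25.2 and 14.5 in KO embryos and 10.9, 19.9 and 15.8 in KO arrest. Mcm4 (mm9 chromosome 16, 15623990 to 15637493), another ATPase subunit, stood at 13.4 and 7.34, then 13.9, 13.4 and 15.2, and then 6.79, 11.8 and 6.69 FPKM in the same 3 groups. The groups overlapped for both genes when knockout and control libraries were set against each other. Mcm5 (mm9 chromosome 8, 77633427 to 77652338), which forms the gate of the ring with Mcm2, stood at 1.32 and 1.79 FPKM in control embryos, 3.30, 2.51 and 5.07 in KO embryos and 5.11, 7.69 and 7.87 in KO arrest. Mcm7 (mm9 chromosome 5, 138605817 to 138613090), whose introns host the microRNA genes Mir25, Mir93 and Mir106b, stood at 1.08 and 3.81, then 7.13, 9.63 and 8.95, and then 10.8, 15 and 6.62 FPKM. For Mcm5 and Mcm7 every knockout library was above both controls. Of all genes 24.2% had that arrangement in KO embryos and 31.3% in KO arrest. Estimates for the 6 ring genes were all above 0 in KO embryos as deposited, but with median-of-ratios scaling those of Mcm2 and Mcm4 were −0.40 and −0.19. In KO arrest Mcm2 and Mcm4 were below 0 (−0.05 and −0.26) and the other 4 above it.

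In ES cells 4 of the 6 ring genes fell after Dcaf11 knockdown, and all 6 had both KD ES libraries below both controls. Among all genes tested 3.64% were called lower and 37.1% had that arrangement. Mcm2 went from 104 and 106 FPKM to 58.5 and 57.2, a log2FC of −0.85 ± 0.07 (limma, adjusted p = 0.0270). Mcm5 went from 49.1 and 47.1 to 27.4 and 28.4 FPKM (log2FC −0.76 ± 0.09, adjusted p = 0.0317). The falls of Mcm6 (log2FC −0.52 ± 0.08, adjusted p = 0.0424) and Mcm4 (70.8 and 67.9 against 48.2 and 50.8 FPKM, log2FC −0.48 ± 0.08, adjusted p = 0.04996) were smaller. Mcm3 (log2FC −0.54 ± 0.10, adjusted p = 0.0596) and Mcm7 (69.4 and 76.5 against 55.8 and 51.8 FPKM, log2FC −0.43 ± 0.09, adjusted p = 0.0688) did not pass. Estimates of all 6 were below 0 under each scaling tried. These calls rest on 2 libraries against 2 with 2 residual degrees of freedom: Mcm2 was called when either KD ES library was left out but not when either control was, Mcm5 held only without KD ES 2, the calls of Mcm4 and Mcm6 were lost without any 1 of the 4, and no ring gene was called when all 12 libraries shared 1 fit.

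**Figure D3:**
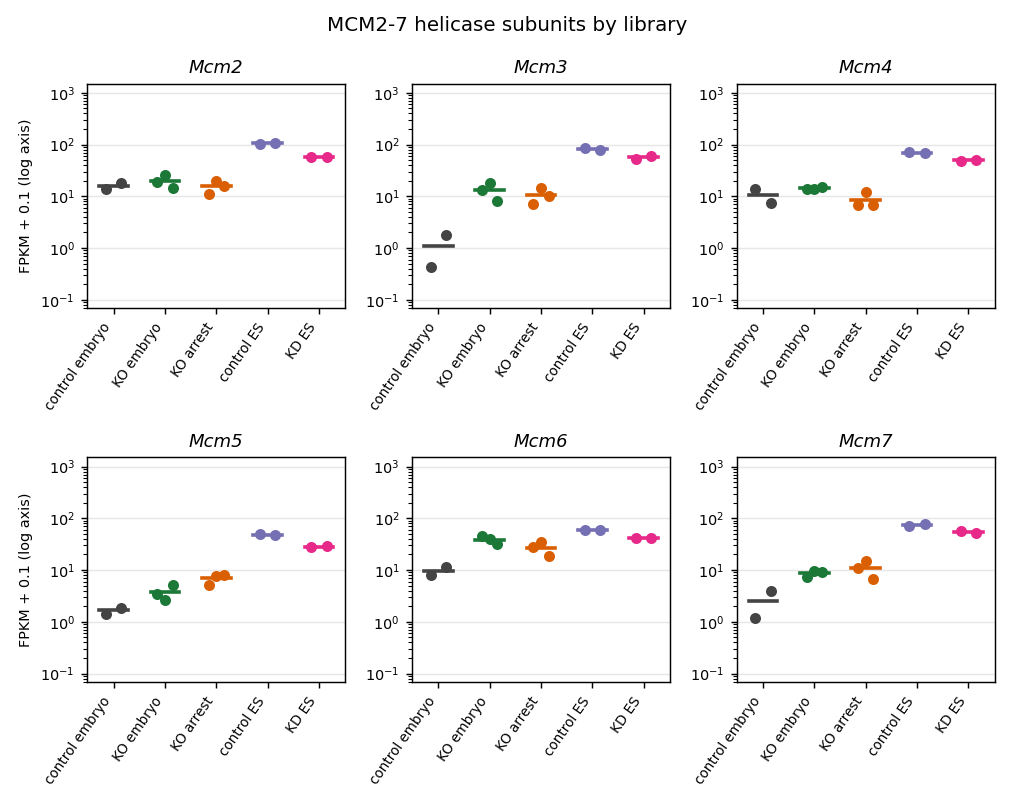
FPKM + 0.1 (log axis) of the 6 MCM2-7 ring genes, 1 panel a gene, with 1 point a library and a bar at the mean of each of the 5 groups. Control embryo points of Mcm3 (0.328 and 1.71 FPKM) lie lowest in that gene's panel, and every KD ES point lies below both control ES points in all 6 panels.

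Of the origin recognition complex 1 of 6 genes was called in the knockout embryos. The share of all genes called was 6.36% in KO embryos and 25.2% in KO arrest. Orc4 (mm9 chromosome 2, 48758274 to 48804787), a subunit of the AAA+ fold, stood at 13.9 and 23.3 FPKM in control embryos, 99.0, 59.7 and 67.0 in KO embryos and 52.1, 38.2 and 49.8 in KO arrest. It stood at 15.1 and 15.7 FPKM in control ES and at 15.9 and 11.4 in KD ES. Orc4 rose in KO embryos (log2FC 1.96 ± 0.43, adjusted p = 0.0291 by limma) and in KO arrest (1.31 ± 0.43, adjusted p = 0.0488), and the KO embryo libraries stood above the KO arrest libraries, a difference that did not pass (adjusted p = 0.317). The Orc4 call in KO embryos was lost without control embryo 1, any KO embryo library or KO arrest 2, and that in KO arrest held without 1 library only when it was control embryo 2. Orc4 overlaps Acvr2a by 511 bases on the other strand, and whether reads were counted by strand is not stated. Orc1 (mm9 chromosome 4, 108252059 to 108287436), the subunit with the ATPase used in loading, stood at 19.3 and 14.9 FPKM in control embryos, 13.2, 7.13 and 8.30 in KO embryos and 17.4, 5.63 and 3.40 in KO arrest. It stood at 22.0 and 19.3 FPKM in control ES and at 15 and 16.4 in KD ES. Control embryos and control ES overlapped for Orc1, whereas they did not for any ring gene. Orc6, which in humans is bound loosely to the rest, took 50.6% to 73.3% of the summed ORC level in control embryos, 42.4% to 59.0% in knockout embryos and 4.58% to 28.6% in ES cells. Its level was 266 and 158 FPKM in control embryos and 4.21 and 34.7 in control ES.

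Of the 3 licensing regulators none was called in the knockout embryos, where 6.36% (KO embryos) and 25.2% (KO arrest) of all genes were. Cdt1 fell in KD ES cells, where 3.64% of all genes were called lower. Cdt1 (mm9 chromosome 8, 125091915 to 125097030), the loader of the ring, stood at 63.9 and 62.5 FPKM in control ES and at 37.7 and 31.8 in KD ES, a log2FC of −0.85 ± 0.11 (limma, adjusted p = 0.0387). In the embryos it was at 7.51 and 15.8 FPKM in controls, 36.7, 18.1 and 37.2 in KO embryos and 14.9, 23.3 and 22.6 in KO arrest. The fall in KD ES held without either KD ES library but not without either control. The KO embryos stood above both controls without passing (log2FC 1.34 ± 0.53, adjusted p = 0.167). Gmnn (mm9 chromosome 13, 24843714 to 24853806), which encodes the inhibitor of CDT1, was among the 3 most abundant of the 42 genes in every embryo library. It stood at 299.996 and 259 FPKM in control embryos, 511, 343 and 599 in KO embryos and 278, 636 and 514 in KO arrest, against 16.8 and 23.0 in control ES and 17.8 and 14.4 in KD ES. The Gmnn to Cdt1 ratio per length was therefore 39.9 and 16.4 in control embryos, 13.9 to 19.0 in KO embryos and 18.7 to 27.3 in KO arrest, and 0.263 and 0.368 in control ES and 0.473 and 0.454 in KD ES. Inhibitor transcript exceeded loader transcript in all 8 embryo libraries and was the lesser in all 4 ES libraries. Cdc6 (mm9 chromosome 11, 98769203 to 98785256), the other loader, stood at 0.935 and 2.92 FPKM in control embryos, 8.10, 1.67 and 7.11 in KO embryos and 11.6, 19.95 and 4.96 in KO arrest. It stood at 11.1 and 10.6 FPKM in control ES and at 12.2 and 11.04 in KD ES, where the groups overlapped. In KO arrest Cdc6 lay above both controls but did not pass (log2FC 2.08 ± 0.78, adjusted p = 0.0759).

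The GINS genes held the most calls of any of these complexes in the knockout embryos, 3 of 4 in KO embryos and 3 of 4 in KO arrest. In the same order 4.86% and 16.4% of all genes tested were called higher. Gins1 (mm9 chromosome 2, 150735330 to 150757016), which encodes the PSF1 subunit, stood at 0.798 and 4.49 FPKM in control embryos, 34.1, 20.9 and 72.1 in KO embryos and 62.3, 98.7 and 71.3 in KO arrest. In ES cells it stood at 24.2 and 26.6 FPKM in controls and 20.2 and 24.8 after knockdown. Every knockout library was above both controls, and the KO arrest libraries all exceeded every ES library. Gins1 rose by a log2FC of 3.61 ± 0.64 in KO embryos (adjusted p = 0.0139 by limma) and 4.61 ± 0.64 in KO arrest (adjusted p = 8.78e-04), the largest of the 42 in both. The call in KO arrest held in all 16 other settings, and that in KO embryos in 13, with losses that included leaving out KO embryo 1 or KO embryo 3. Gins3 (mm9 chromosome 8, 98157459 to 98168959), for PSF3, stood at 15.8 and 3.24 FPKM in controls, 48.3, 49.9 and 37.0 in KO embryos and 54.1, 25.4 and 24.4 in KO arrest. Gins3 rose in KO embryos (log2FC 2.44 ± 0.62, adjusted p = 0.0458) and in KO arrest (1.98 ± 0.62, adjusted p = 0.0400). With 1 library left out, the 2 Gins3 calls held only without control embryo 1.

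Gins2 and Gins4, for the PSF2 and SLD5 subunits, were each called in 1 knockout comparison. Gins2 (mm9 chromosome 8, 123105166 to 123112975) was listed at 0 in control embryo 1 and stood at 4.03 FPKM in control embryo 2, at 12.8, 21.7 and 11.3 in KO embryos and at 8.002, 8.58 and 10.4 in KO arrest. Gins2 rose in KO embryos (log2FC 2.81 ± 0.72, limma, adjusted p = 0.0461) and missed the threshold in KO arrest (2.15 ± 0.72, adjusted p = 0.0504). With 1 library left out its call held only without control embryo 2. Gins2 shares 118 bases with Gse1 on the other strand. Gins4 (mm9 chromosome 8, 24337082 to 24348140) stood at 20.6 and 15.8 FPKM in controls, 27.7, 42.1 and 27.3 in KO embryos and 80.2, 65.7 and 101 in KO arrest. Here the 3 groups did not overlap and lay in steps, controls lowest. Gins4 rose in KO arrest against controls (log2FC 2.11 ± 0.43, adjusted p = 0.00596), a call lost only with median-of-ratios scaling, and had the smallest p of the 42 against KO embryos (1.33 ± 0.38, adjusted p = 0.0564). In ES cells Gins2 went from 24.3 and 24.2 FPKM to 19.0 and 19.7, Gins3 from 10.3 and 8.50 to 6.08 and 8.26, and Gins4 from 31.4 and 27.7 to 29.7 and 33.3. None of the 4 GINS genes passed there. Of the other 4 genes of fork activation (Dbf4, Cdc7, Mcm10 and Cdc45) none passed within embryos or within ES cells. Dbf4, the activator of CDC7, varied widely inside groups, at 474 and 76.2 FPKM in control embryos and 409.5, 534 and 25.6 in KO embryos.

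Of the genes of polymerases and primase 1 of 7 tested was called in KO arrest and 0 of 7 in KO embryos. Among all genes 25.2% and 6.36% were called in the same order. Prim2 (mm9 chromosome 1, 33510656 to 33726603), the large primase subunit, stood at 0.0937 and 0.759 FPKM in control embryos, 5.23, 5.05 and 3.74 in KO embryos and 5.67, 7.57 and 5.71 in KO arrest. It stood at 4.42 and 6.09 FPKM in control ES and at 6.94 and 8.74 in KD ES. Knockout and control ES levels of Prim2 overlapped, and the log2FC was 2.39 ± 0.59 in KO arrest (limma, adjusted p = 0.0148) and 2.02 ± 0.59 in KO embryos, which did not pass (adjusted p = 0.0709). The call of Prim2 in KO arrest was lost without control embryo 1 and without KO arrest 2. Pold1, the catalytic subunit of polymerase delta, was the gene not tested in embryos: it was listed at 0 in 7 of 8 embryo libraries and stood at 1.04 FPKM in KO embryo 2, against 1.26 to 4.58 in ES cells. Pola1, Pola2, Prim1, Pold2, Pole and Pole2 stood at or below 24.6 FPKM in every library, and none passed within embryos or within ES cells.

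Of the 5 clamp loader genes 2 rose in KO arrest, where 16.4% of all genes were called higher. Rfc2 (mm9 chromosome 5, 135058560 to 135074198), a small subunit, stood at 0.139 and 1.46 FPKM in control embryos, 4.02, 9.09 and 1.80 in KO embryos and 13.9, 36.1 and 19.7 in KO arrest. The 3 groups did not overlap, and the KO arrest values lie on both sides of the 15.6 and 15.4 FPKM of control ES. Rfc2 rose in KO arrest (log2FC 3.75 ± 0.73, limma, adjusted p = 0.00504) in this and all 16 other settings, and fell in KD ES to 9.04 and 7.99 FPKM (log2FC −0.80 ± 0.12, adjusted p = 0.0436). The Rfc2 fall in ES cells was lost without any 1 of the 4 ES libraries. Rfc1 (mm9 chromosome 5, 65653091 to 65726878), the large subunit, stood at 5.49 and 23.8 FPKM in control embryos, 34.3, 29.3 and 26.4 in KO embryos and 36.2, 50.2 and 41.6 in KO arrest. It stood at 24.3 and 22.9 FPKM in control ES and at 19.1 and 20.3 in KD ES. Rfc1 rose in KO arrest (log2FC 1.77 ± 0.57, adjusted p = 0.0427), and with 1 library left out the call held only without control embryo 2. Pcna (mm9 chromosome 2, 132075022 to 132078916), the sliding clamp that holds polymerases on DNA, stood at 70.2 and 92.3 FPKM in controls, 98.6, 67.7 and 59.6 in KO embryos and 158, 139.6 and 109.7 in KO arrest. It stood at 152 and 141 FPKM in control ES and at 171 and 147 in KD ES. Every KO arrest value of Pcna was above every control and KO embryo value, but neither difference passed (adjusted p = 0.197 and 0.150), and its ES groups overlapped. Processed copies of Pcna exist in the mouse genome, and reads can be shared with them.

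Among the genes of single-strand binding and Okazaki joining 1 of 5 was called in each knockout comparison. The share of all genes called was 6.36% in KO embryos and 25.2% in KO arrest. Rpa2 (mm9 chromosome 4, 132324275 to 132334661), the middle subunit of the single-strand binding protein RPA, stood at 1.01 and 11.9 FPKM in control embryos, 44.8, 57.5 and 45.6 in KO embryos and 71.6, 68.8 and 44.0 in KO arrest. It stood at 27.5 and 29.2 FPKM in control ES and at 23.2 and 17.4 in KD ES. All 6 knockout libraries exceeded the control embryos and the ES cells. Rpa2 rose in KO embryos (log2FC 3.29 ± 0.68, adjusted p = 0.0233 by limma) and in KO arrest (3.58 ± 0.68, adjusted p = 0.00449). The first call was lost without any 1 of the 3 KO embryo libraries, and the second held in all 16 other settings. Rpa3, the smallest subunit, did not pass and stood at 165 and 88.5 FPKM in controls and 33.7, 53.2 and 45.2 in KO embryos (log2FC −1.46 ± 0.42, adjusted p = 0.0666). Rpa3 lay on the low side of both controls in every KO embryo, and was called lower with a minimum of 5 FPKM, with median-of-ratios scaling and without control embryo 2.

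**Figure D4:**
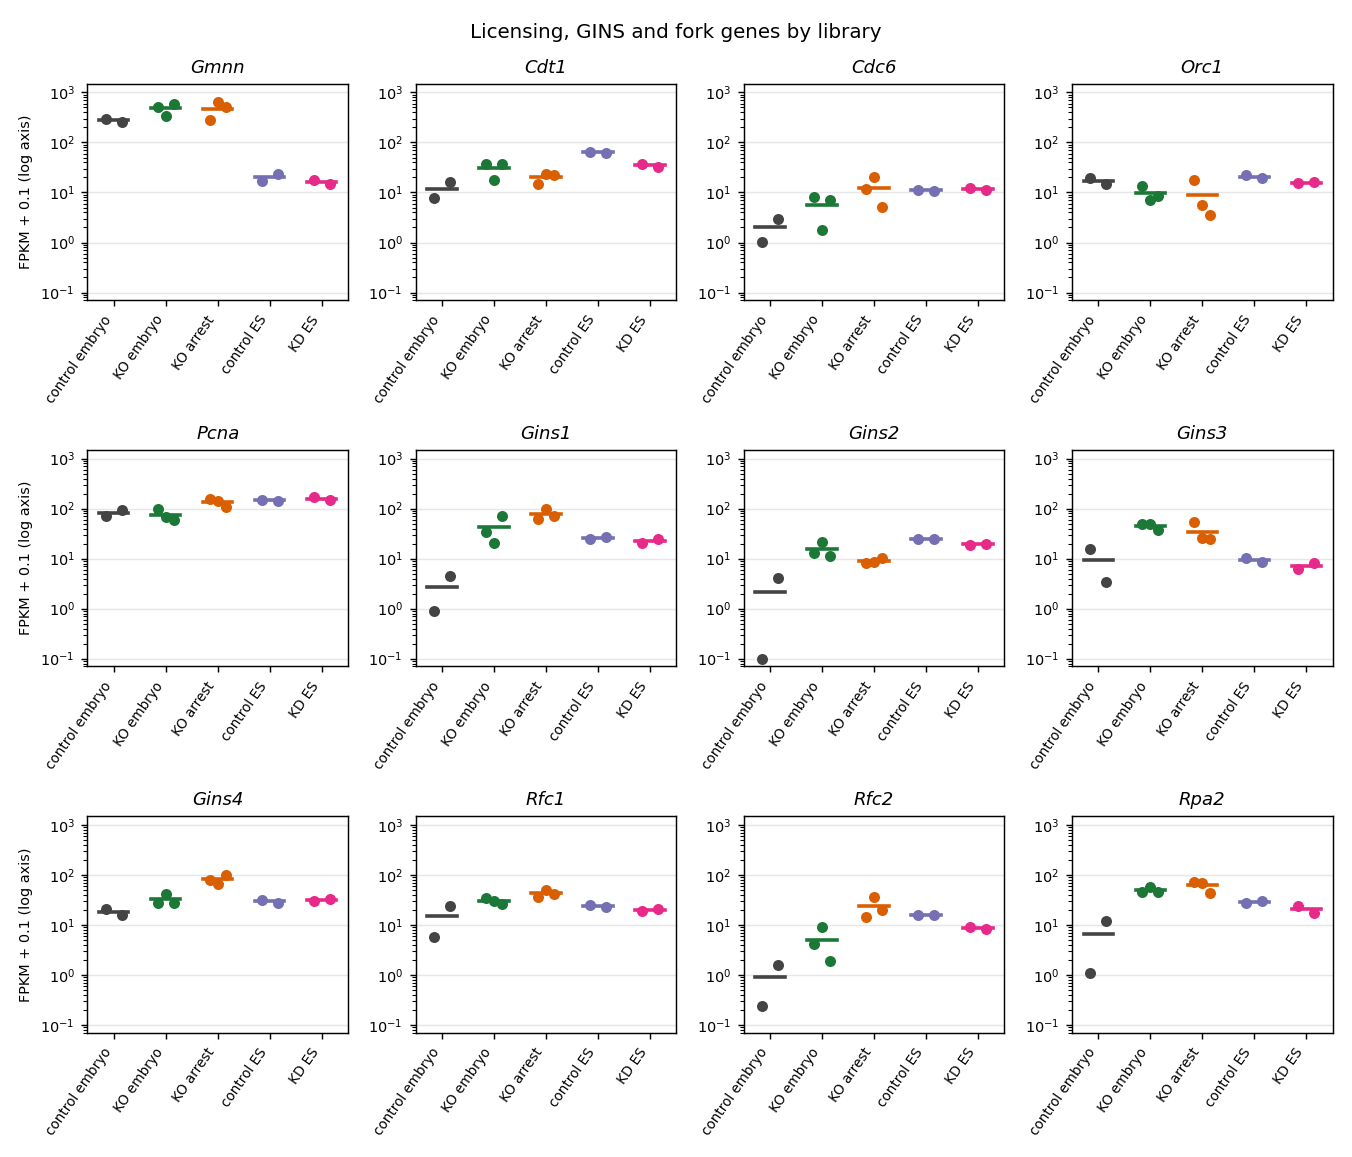
FPKM + 0.1 (log axis) of named licensing and fork genes, 1 panel a gene, with 1 point a library and a bar at the mean of each of the 5 groups. Gmnn stands between 259 and 636 FPKM in embryos and between 14.4 and 23.0 in ES cells, and Gins1, Rfc2 and Rpa2 are lowest in control embryos.

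Embryo and ES cell effects were set against each other by subtracting the KD ES log2FC from the KO embryo log2FC, in 1 limma fit of all 12 libraries. It was called for Mcm3 (3.35 ± 0.66, adjusted p = 0.0305), Mcm6 (2.43 ± 0.48, adjusted p = 0.0299) and Gins1 (3.78 ± 0.84, adjusted p = 0.0472), each higher in embryos, and for 2.69% of all genes, 2.06% on the higher side. The C57BL/6 knockout embryos and the 129Sv knockdown cells differ in strain, tissue and kind of depletion, which cannot be told apart. Cdt1 (2.18 ± 0.62, adjusted p = 0.0968) did not pass. The count of 3 became 10 when control embryo 2 was left out, 0 or 1 when KO embryo 1 or 2 was, 0 without any 1 of the 4 ES libraries, and 0 with median-of-ratios scaling.

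Control embryos differed from control ES in 28 of 42 replication genes, 5 higher and 23 lower, where 53.4% of all 14447 genes were called, 12.6% higher and 40.8% lower. All 6 ring genes were lower, from −2.54 ± 0.35 for Mcm6 to −5.45 ± 0.49 for Mcm3 (limma, adjusted p = 2.33e-04 and 1.86e-05). The 5 that were higher, named after their values were seen, were Dbf4 (5.16 ± 1.30, adjusted p = 0.00728), Orc6 (3.92 ± 0.70, adjusted p = 0.00106), Gmnn (3.76 ± 0.41, adjusted p = 5.33e-05), Rpa3 (2.605 ± 0.38, adjusted p = 3.08e-04) and Orc2 (1.33 ± 0.39, adjusted p = 0.0151). The Dbf4 call was lost without control embryo 1 and without control ES 1. That of Orc2 was lost without control embryo 2 and without control ES 1. The median log2FC of the replication genes was −1.74 and that of all genes −1.01; with median-of-ratios scaling these were −0.85 and −0.43, and 8 genes were higher and 19 lower. Both control embryos lay below both control ES libraries for 30 of the 42 genes, an arrangement that 55.2% of all genes had, and above them for 6, against 19.2%. Strain and tissue differ together here and cannot be told apart.

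Markers of other cells and of maternal RNA differed between the same groups. The 11 oocyte and maternal markers summed to 22862 to 33777 FPKM in control embryos, 7792 to 11467 in KO embryos, 584 to 842 in KO arrest and 23.4 to 27.4 in ES cells, with Zp1 listed at 0 in all embryos and Zp2 also in KO arrest. The 5 blood markers found of 6 summed to 63.9 to 129.6 FPKM in control embryos and 223 to 335 in KO embryos, and all 5 were listed at 0 in KO arrest and ES cells. The 7 fibroblast and feeder markers summed to 17.1 to 67.2 FPKM in control embryos, 59.2 to 92.9 in KO embryos, 0.0513 to 2.90 in KO arrest, 73.7 to 74.5 in control ES and 46.0 to 52.0 in KD ES, with 5 of 7 listed at 0 in KO arrest. The 8 cumulus and granulosa markers summed to 12.4 to 17.1 FPKM in control embryos, 0.307 to 2.68 in KO embryos, 0 to 2.82 in KO arrest, 22.7 to 23.0 in control ES and 11.2 to 11.8 in KD ES. The 10 pluripotency markers summed to 679.9 to 755 FPKM in control embryos, 1719 to 3058 in KO embryos, 1420.3 to 2044 in KO arrest, 3508 to 3595 in control ES and 2840 to 3172 in KD ES. The 6 markers of the two-cell stage summed to 589.7 to 1026 FPKM in control embryos, 118 to 170.2 in KO embryos, 178 to 616 in KO arrest, 23.6 to 33.4 in control ES and 3.47 to 3.96 in KD ES, with Tcstv3 listed at 0 in all 12 libraries and Zfp352 also in KD ES. The 6 primitive endoderm markers summed to 13.6 to 13.8 FPKM in control ES and 9.54 to 10.1 in KD ES, and the embryo groups overlapped (21.9 to 54.6), as did the 7 trophectoderm markers in embryos (0.752 to 34.2) and in ES cells (31.0 to 57.6). The maternal sum was lower step by step from control embryos to KO embryos to KO arrest. Mcm5, Prim2, Gins4, Rfc1 and Rfc2 stood higher in that order, without overlap between the groups. The share of all genes with this order was not counted, and the part of these markers in these differences was not tested. Among the other lists, the blood and pluripotency sums were higher and the two-cell and cumulus sums lower in every KO embryo than in both controls, and the fibroblast, cumulus, pluripotency, two-cell and primitive endoderm sums were lower in both KD ES libraries than in both controls. The part of these markers in the results was not tested.

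Among genes that act beside the replication machinery, those that supply deoxynucleotides had the largest share of calls of 5 related lists in the 3 comparisons between embryo groups, and no call in KD ES, where the other 4 lists each had at least 1. Of 10 such genes 2 rose and 1 fell in KO embryos, 5 rose in KO arrest, 4 rose in KO arrest against KO embryos and 0 passed in KD ES, with median log2FC of 0.81, 1.93, 1.16 and −0.24. Of all genes 6.36%, 25.2%, 8.58% and 6.23% were called in these comparisons. Nme1, a nucleoside diphosphate kinase, stood at 5.40 and 11.1 FPKM in control embryos, 145, 120.3 and 164 in KO embryos and 322, 365 and 377 in KO arrest (log2FC 4.02 ± 0.39 and 5.33 ± 0.39 against controls, limma, adjusted p = 0.00239 and 1.20e-04). Tyms, thymidylate synthase, was at 0.121 and 4.95 FPKM in controls, 4.66, 1.37 and 5.23 in KO embryos and 28.2, 43.3 and 31.0 in KO arrest (against KO embryos 2.98 ± 0.69, adjusted p = 0.0263). Dut, which removes dUTP, fell in KO embryos (15.7, 14.8 and 21.4 against 48.7 and 73.0 FPKM, adjusted p = 0.0375) and stood at 50.2, 49.1 and 55.8 in KO arrest. Rrm1, a ribonucleotide reductase subunit, rose in KO embryos (18.6, 10.1 and 17.3 against 0.957 and 3.34 FPKM, adjusted p = 0.0393), and Tk1, thymidine kinase, rose in KO arrest (45.9, 60.6 and 80.6 against 0.909 and 6.53, adjusted p = 0.00269).

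Of 19 genes of G1/S control 0 of 18 tested passed in KO embryos, 2 rose and 2 fell in KO arrest, 1 rose and 1 fell in KO arrest against KO embryos, and 5 of 19 fell in KD ES. The 4 of 18 called in KO arrest are a smaller share than the 25.2% of all genes, the 2 of 18 against KO embryos are near the 8.58% of all genes, and in KD ES 3.64% of all genes were called lower. Cdkn1a, the p21 inhibitor of cyclin-dependent kinases, stood at 150.2, 173 and 323 FPKM in KO arrest against 24.3, 4.69 and 6.55 in KO embryos (log2FC 4.31 ± 0.60, limma, adjusted p = 0.00419) and 13.6 and 30.7 in controls (3.25 ± 0.67, adjusted p = 0.00679). E2f1, an activator of S-phase genes, stood at 5.91, 8.62 and 6.89 FPKM in KO arrest against 26.5, 20.5 and 23.6 in KO embryos (−1.60 ± 0.44, adjusted p = 0.0493). Rb1, the retinoblastoma repressor of E2F, fell in KO arrest (11.3, 7.46 and 2.42 against 48.1 and 42.5 FPKM in controls, adjusted p = 0.00863), and E2f6 rose (11.9, 5.02 and 9.35 against 0 and 0.164 FPKM, adjusted p = 0.0107). In KD ES the cyclin genes Ccnd2 (3.75 and 4.21 against 11.9 and 10.97 FPKM, adjusted p = 0.0312), Ccnd3 (79.7 and 80.6 against 148 and 129, adjusted p = 0.0338) and Ccne1 (8.43 and 9.90 against 19.0 and 19.6, adjusted p = 0.0372) fell, as did Ccnd1 and Cdkn1b.

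Of 15 fork-protection and firing regulators 0 passed in KO embryos, 1 rose and 2 fell in KO arrest, 1 (Mcmbp) fell in KO arrest against KO embryos and 1 fell in KD ES. The 3 of 15 called in KO arrest are a smaller share than the 25.2% of all genes, and the single calls of the other comparisons are near 8.58% and 6.23%. Mcmbp, whose product binds MCM subunits, stood at 35.6, 37.1 and 28.5 FPKM in KO arrest, 217, 331 and 210.3 in KO embryos and 530.2 and 172 in controls (log2FC −3.14 ± 0.49 against controls, limma, adjusted p = 0.00166). Chek1, a checkpoint kinase, fell in KO arrest (23.2, 14.8 and 9.25 against 101 and 108 FPKM, adjusted p = 0.00240). Tipin, of the fork protection complex, rose in KO arrest (571, 606 and 624 against 250.3 and 232 FPKM, adjusted p = 0.0190) and fell in KD ES (25.6 and 29.0 against 48.1 and 46.1, adjusted p = 0.0387). Of 19 genes of PCNA loading, chromatin assembly and Okazaki processing 1 rose in each of 3 comparisons: Pole3 in KO arrest, Rnaseh2a in KO arrest against KO embryos and Atad5, of the unloader of PCNA, in KD ES (28.1 and 25.5 against 14.4 and 16.3 FPKM, adjusted p = 0.0453). The shares of all genes called higher were 16.4%, 4.93% and 2.59% in the same order. Of 9 genes of CUL4 degradation of licensing proteins 0 passed in KO embryos and 1 rose (Rbx1) and 2 fell (Usp37 and Cul4b) in KO arrest. In KO arrest 16.4% of all genes were called higher and 8.87% lower. Rbx1 stood at 174, 163 and 197 FPKM there, but its control embryos lay far apart at 1.69 and 104.8. Ddb1, the ligase's adaptor, was the 1 that fell in KD ES (37.0 and 40.4 against 65.6 and 63.6 FPKM, log2FC −0.73 ± 0.09, adjusted p = 0.0352), and Usp37, a deubiquitinase that acts on CDT1, stood at 74.5, 48.0 and 27.7 FPKM in KO arrest against 191, 234 and 213 in KO embryos (−2.17 ± 0.39, adjusted p = 0.0103). The shares of all genes called lower in these comparisons were 3.64% and 3.65%.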

How the data were processed

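Each library had 1 table made by the authors, in which, per the file headers, a row gave a gene's FPKM, TPM and coverage. The submitters' processing notes name STAR (listed with version 0.6.0), StringTie and DESeq2 with build mm9, without their roles; annotation, strand and filters are not stated. The deposited FPKM values, scaled to gene length and library size, were summed per gene ID. The deposited TPM values served as an alternative scaling, and the deposited coverage gave relative depth only, so no interval for counting error could be set. FPKM shares each library's total, so a few very abundant transcripts lower the rest.

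Members, roles, related and marker lists and the rule for named genes were chosen with earlier results of these data known. The 20 genes given in every library are the 6 ring genes, Cdc6, Cdt1, Gmnn, Orc1, Pcna and each member called within embryos or within ES cells. Tests used limma 3.58.1 in R 4.3.3 with a variance trend on log2(FPKM + 1), genes with at least 1 FPKM in 2 libraries, and Benjamini-Hochberg over all genes kept. Embryo comparisons shared 1 fit of 8 libraries, ES comparisons 1 of 4, and comparisons across tissues 1 of 12. The fits were also run on simulated data, with independent noise for each value and no shift shared by a whole library. Differences such as that between control embryos 1 and 2 were therefore not covered by the simulation. Exact permutation tests were not used: with 2 against 3 libraries the smallest two-sided p on the absolute difference of means is 0.1. Alternatives were a pseudocount of 0.1, no filter, at least 5 FPKM in place of 1, scaling by TPM or by median-of-ratios, the replicate number as a block, removal of the trend with gene length (lowess span 0.3), other libraries in the fit and each library left out.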

Additional observations from a re-analysis of the deposited data

Results flagged for a closer look

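Effects differed between embryos and ES cells for 3 replication genes, by the test of the difference of effects (KO embryo minus control embryo against KD ES minus control ES, limma over 12 libraries). The difference in log2 fold change was 3.35 for Mcm3, 2.43 for Mcm6 and 3.78 for Gins1. It kept its call in 11 of 19 other settings for Mcm3, 12 of 19 for Mcm6 and 5 of 19 for Gins1. No call held with median-of-ratios scaling. With 1 library left out, the call of Gins1 held in 2 of 12 fits, only without control embryo 2 or KO embryo 2. Those of Mcm3 and Mcm6 held in 6 of 12 each. They were lost without KO embryo 1, without KO embryo 2 and without any single ES library. Every KO embryo library was above both control embryos for these 3 genes, as for 24.2% of all genes. Both KD ES libraries were below both control ES libraries for Mcm3 and Mcm6, as for 37.1% of all genes, while the ES groups of Gins1 overlapped. The 3 genes were picked from these same values, so this order of libraries is no separate support.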

How the results depend on the processing

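Counts of called replication genes moved by over 1.5 times in these settings. In KO embryo against control embryo 7 became 1 with no filter on low values, 4 with TPM, 4 with median-of-ratios scaling and 1 with only the compared groups; leaving out 1 library gave 0 to 10. In KO arrest against control embryo 9 became 4 to 12 with 1 library left out. In KO arrest against KO embryo 0 became 1 with a minimum of 5 FPKM and 2 with only the compared groups, and 0 to 2 with 1 library left out. In KD ES against control ES 6 became 2 with no filter, 2 with TPM, 3 with median-of-ratios scaling, 0 with all 12 libraries in 1 fit and 0 to 3 with 1 left out. In the difference of effects 3 became 0 with median-of-ratios scaling and 0 to 10 with 1 library left out. In control embryo against control ES no count moved by over 1.5 times, and 28 became 21 to 29 over the settings run. With the replicate block the 6 counts, in the order of this paragraph, were 0, 7, 0, 0, 1 and 27. Same-numbered libraries did not deviate together (correlations −0.10 to 0.02). Whether the numbers pair the libraries stays unknown, since the labels do not explain them and deviations in a group of 2 mirror each other. Some of these settings leave fewer samples or residual degrees of freedom. The cause of the moves was not tested. Of 25 calls of single genes run under 385 settings in all, 205 were kept, 180 lost and 0 reversed. Without read counts, depth sets no limit that can be given per value.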
